A study of Homo sapiens with 2 samples.

Results

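The genes described here are 10 components of the Notch pathway, namely the ligands JAG1 and JAG2, the receptors NOTCH1, NOTCH2 and NOTCH3, the nuclear proteins RBPJ and MAML1, the target genes HES1 and HEY1 and the inhibitor NUMB. Their peaks were taken by name, as every FAIRE peak whose listed nearest gene was 1 of the 10. This gave 40 of the 56159 listed peaks, at 6 of the 10 genes. JAG2, NOTCH1, NOTCH2 and NOTCH3 had no listed peak.

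FAIRE-seq recovers and sequences the DNA that crosslinking leaves free of protein, so that a peak marks a stretch of open chromatin. It was applied to HepG2, an established human liver cancer cell line, to ask how chromatin accessibility changes when the nuclear receptor NR2E3 is lost. The control cells (CT) received lentiviral particles with a scrambled small hairpin RNA, and the NR2E3-depleted cells received particles with a hairpin against NR2E3 (shNR2E3). Each group had 1 library, so no difference between the groups has a replicate check and no p-value is given. Both libraries came from the same cell line, and whether the depleted cells were 1 clone or a pool is not given in the labels.

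Notch ligands on a sending cell bind Notch receptors on its neighbour, and the receptor is then cut so that its intracellular domain enters the nucleus. There it joins the DNA-binding protein RBPJ and a Mastermind coactivator such as MAML1, and genes of the HES and HEY families are switched on. In the liver the pathway directs cells towards the bile duct fate, and inherited loss of JAG1 function causes Alagille syndrome, in which bile ducts are too few.

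The peaks came as 3 lists, 14368 peaks that both libraries shared, 16236 called only in control cells (control-specific) and 25555 called only in NR2E3-depleted cells (depleted-specific). The listed score of a peak is a scaled tag number, and its steps gave the tags behind each peak. The smallest step was 0.407 in the common and control-specific lists and 0.507 in the depleted-specific list. If the lists share a score scale, which is not stated, the depleted library had 0.802 times the depth of the control library. The lowest listed peak had 10 tags in the common and control-specific lists and 8 tags in the depleted-specific list. Tag numbers are given with exact Poisson 95% intervals and ratios of peak numbers with exact binomial 95% intervals, which cover counting error only. As a check of the cell type, 9 of 15 hepatocyte marker genes and 1 of 9 markers of other cell types, LYZ, had a common promoter peak, against 14.6% of all protein-coding genes. A peak of any class in any list was less specific, with 14 of the 15 and 6 of the 9, against 51.9% of all genes.

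The open sequence at 4 of the promoter peaks is shown first, because many of the motif positions given for JAG1, HES1 and RBPJ lie in it. The letters are those of hg38 on the strand of the gene, from the 5′ edge of the peak up to the base before the listed transcription start site (TSS), or the whole of a peak that lies upstream. The motif counts given later cover the whole peak, so matches past the TSS are not among the printed letters. Capitals mark the RBPJ core (TGGGAA, or TTCCCA on the other strand) and the Sp1 core (GGGCGG, or CCGCCC on the other strand). The HES1 sequence is chr3:194135970-194136147, plus strand, in the common list. The first JAG1 sequence is chr20:10674000-10674247, minus strand, in the common list. The second is chr20:10674758-10675057, minus strand, in the depleted-specific list. The RBPJ sequence is chr4:26319622-26319745, plus strand, in the control-specific list.
HES1 common: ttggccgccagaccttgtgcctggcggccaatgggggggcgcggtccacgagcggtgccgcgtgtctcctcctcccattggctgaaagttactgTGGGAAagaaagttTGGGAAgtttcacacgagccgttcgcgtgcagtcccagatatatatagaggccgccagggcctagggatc
JAG1 common: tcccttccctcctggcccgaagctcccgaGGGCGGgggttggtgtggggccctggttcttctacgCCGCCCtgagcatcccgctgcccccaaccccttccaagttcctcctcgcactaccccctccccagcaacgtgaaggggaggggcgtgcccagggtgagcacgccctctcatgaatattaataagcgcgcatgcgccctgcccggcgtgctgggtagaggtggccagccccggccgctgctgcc
JAG1 depleted-specific: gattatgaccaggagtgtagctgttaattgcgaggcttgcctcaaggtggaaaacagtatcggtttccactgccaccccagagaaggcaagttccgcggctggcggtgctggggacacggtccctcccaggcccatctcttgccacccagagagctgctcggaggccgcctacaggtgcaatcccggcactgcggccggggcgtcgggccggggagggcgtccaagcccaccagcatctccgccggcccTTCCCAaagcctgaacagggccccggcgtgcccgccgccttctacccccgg
RBPJ control-specific: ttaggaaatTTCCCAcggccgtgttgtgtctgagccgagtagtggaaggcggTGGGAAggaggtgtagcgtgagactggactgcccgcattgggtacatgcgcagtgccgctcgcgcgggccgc

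The 40 peaks comprised 8 common, 14 control-specific and 18 depleted-specific peaks. JAG1 held 26 of them, HES1 6, RBPJ 3, MAML1 and NUMB 2 each, and HEY1 1. Of the 40 peaks, 6 were in the promoter class assigned by HOMER, 9 were intronic and 25 intergenic. Outside the promoter class were 34 of 40 (85.0%), against 87.2% of all listed peaks.

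**Figure D1:**
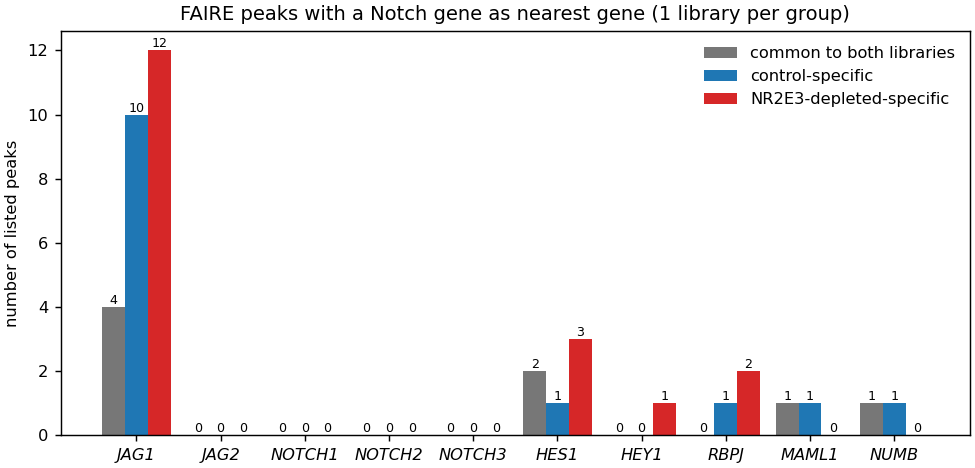
Number of listed FAIRE peaks (y axis) whose nearest gene was each of the 10 Notch genes (x axis), by list, with 1 library per group and so no error bars. JAG1 stands far above the others with 4 common, 10 control-specific and 12 depleted-specific peaks, and JAG2 and the 3 NOTCH receptors are at 0.

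By gene, a common peak of any class was listed for 4 of the 10 genes (JAG1, HES1, MAML1 and NUMB), against 26.9% of 20020 protein-coding genes. A control-specific peak was listed for 5 (JAG1, HES1, RBPJ, MAML1 and NUMB), against 21.2% of all genes. A depleted-specific peak was listed for 4 (JAG1, HES1, HEY1 and RBPJ), against 36.4%. The 6 genes with a peak in any list compare with 51.9% of all genes. With 10 genes a step of 1 gene is 10 points, and no test was made of these shares.

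Of the 5 genes with a promoter peak, 4 had one that both libraries shared. A common promoter peak was listed for 4 genes (JAG1, HES1, MAML1 and NUMB), against 14.6% of protein-coding genes. A control-specific promoter peak was listed for RBPJ alone, against 3.69%, and a depleted-specific one for JAG1 alone, against 11.8%. Any promoter peak was listed for 5 of 10 genes, against 28.3%.

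**Figure D2:**
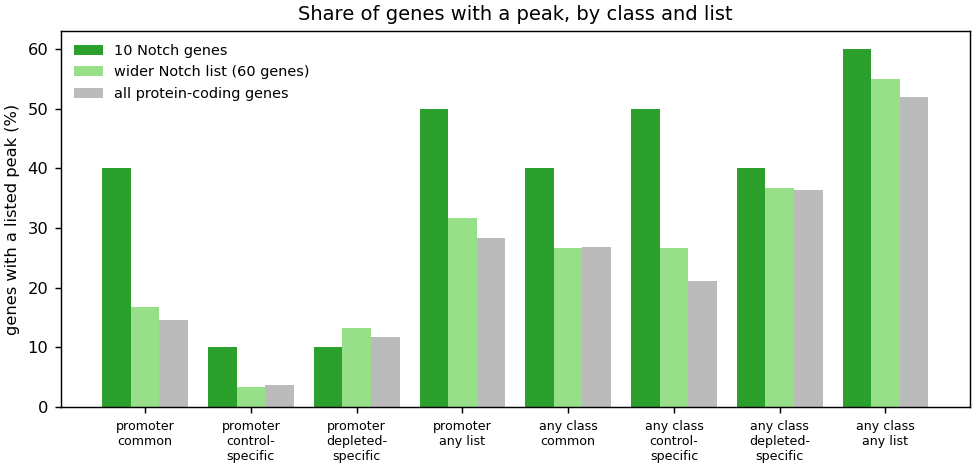
Percent of genes with a listed peak (y axis) for the promoter class and for any class in each list (x axis), for the 10 Notch genes, the wider Notch list of 60 genes and all 20020 protein-coding genes. The wider list stays within 6 points of all genes in every group of bars, while a bar of the 10 genes moves by 10 points for each gene.

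JAG1, the ligand whose loss underlies Alagille syndrome, lies on the minus strand at chr20:10637684-10673999. Its promoter carried 1 peak open in both libraries and 1 listed for the depleted library alone. The common peak, at chr20:10673948-10674248 and centred 99 bp upstream of the TSS, had a listed score of 6.91, or 17 tags (9.90 to 27.2). That is the median tag number of all common promoter peaks, and 54.9% of these scored as high or higher. The common list gives 1 score per peak, with the same step of 0.407 as the control-specific list. Its scores were therefore read on the control scale, and the lists used here hold no separate score of this peak in the depleted library.

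The depleted-specific promoter peak of JAG1, at chr20:10674758-10675058, was centred 909 bp upstream of the TSS and 810 bp from the common one. Its score was 10.6, or 21 tags (13.0 to 32.1). It was the highest score of the 40 peaks, although the highest common peak rested on more tags, and 1.85% of depleted-specific peaks and 6.13% of those in promoters scored as high. No control-specific JAG1 peak lay between this site and 15 kb upstream.

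Around the rest of JAG1 both libraries had peaks of their own, often side by side. In addition to its promoter peak the common list had peaks 37.5 kb and 35.1 kb upstream and one 3.17 kb downstream in intron 2 of 25. The peak at -37.5 kb had a score of 10.2 and 25 tags (16.2 to 36.9), the highest of the common Notch gene peaks. The intronic one had a score of 6.51 and 16 tags (9.15 to 26.0), and the one at -35.1 kb a score of 5.69 and 14 tags (7.65 to 23.5).

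The 10 control-specific JAG1 peaks ranged from 12 to 18 tags, none of them in the promoter class. The highest, at 18 tags (10.7 to 28.4) and a score of 7.32 each, lay 25.2 kb upstream and 2.61 kb and 8.51 kb downstream in intron 2. The 12 depleted-specific peaks ranged from 11 to 21 tags. After the promoter peak the highest lay 3.68 kb upstream, with a score of 8.62 and 17 tags (9.90 to 27.2), and 9.04 kb downstream in intron 2, with a score of 7.60 and 15 tags (8.40 to 24.7). Scores ran from 4.88 to 7.32 in the control-specific and from 5.58 to 10.6 in the depleted-specific peaks of JAG1, so that the lists overlapped.

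By position, and counting only peaks listed under JAG1, the stretch from 30 to 15 kb upstream held 6 control-specific, 2 depleted-specific and 0 common peaks. From 40 to 30 kb upstream the order was the other way, with 1 control-specific, 4 depleted-specific and 2 common peaks. Within 5 kb upstream there were 3 depleted-specific, 1 common and 0 control-specific peaks. From the TSS to 15 kb downstream each specific list had 3 peaks under JAG1. A further control-specific peak in that stretch, 12.4 kb downstream with 14 tags (7.65 to 23.5), was listed under another gene. These bounds were set after the positions were seen, and the numbers in each stretch are small.

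**Figure D3:**
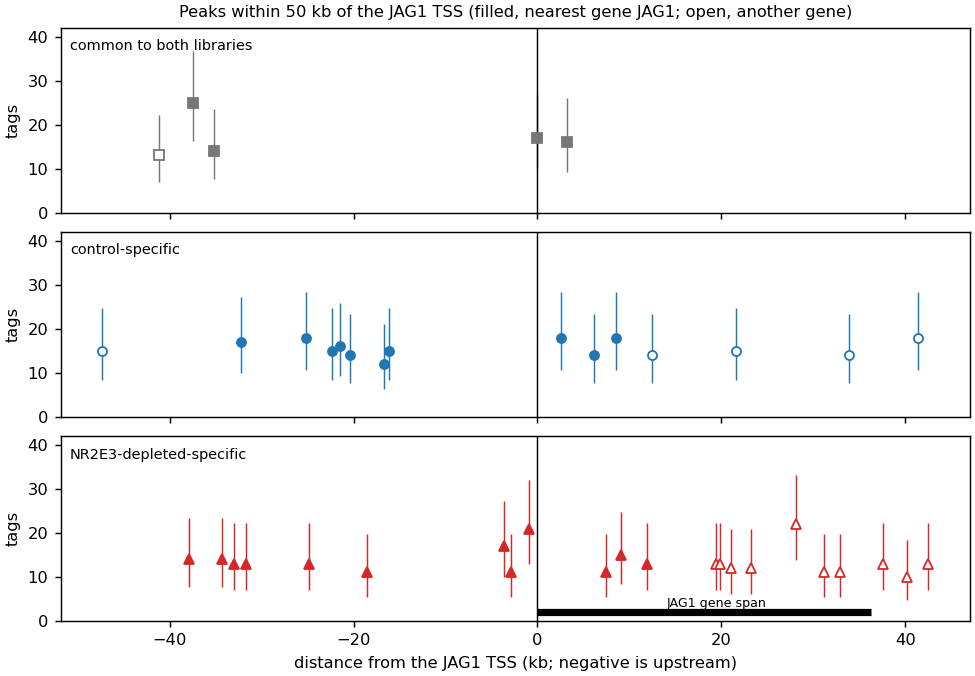
Tags (y axis, with exact Poisson 95% intervals) of each peak within 50 kb of the JAG1 TSS against its distance from the TSS in kb (x axis), with 1 panel per list, filled symbols where JAG1 was the nearest gene and open symbols where another gene was. The depleted-specific peaks just upstream of the TSS have no control-specific neighbour, whereas 6 control-specific peaks stand between -30 and -15 kb beside 2 depleted-specific ones.

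Many of the JAG1 peaks called specific lay next to a peak of the other library. A peak of the other library was centred within 1000 bp for 4 of its 10 control-specific peaks, against 21.7% of all control-specific peaks. The same held for 8 of its 12 depleted-specific peaks, the promoter peak among them, against 14.8% of all depleted-specific peaks. None of the specific peaks of the other Notch genes had such a neighbour.

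The ratio of depleted-specific to control-specific peaks was 1.20 (0.475 to 3.10) at JAG1. It was 1.29 (0.604 to 2.79) over all members and 1.50 (0.356 to 7.23) over the members without JAG1. Over all listed peaks it was 1.57, and on chromosome 20 it was 1.13 (1.08 to 1.18), from 3933 depleted-specific and 3475 control-specific peaks. The interval of the JAG1 ratio held both the chromosome 20 and the overall value. The direction turned in other settings, with a JAG1 ratio of 0.667 when specific peaks near the other library were left out, and ratios of 0.429 at JAG1 and 0.444 over the Notch genes when at least 15 tags were required. That limit is a score of 7.60 in the depleted-specific list and 6.10 in the control-specific list. The ratio over all listed peaks in these settings is not given here. If every chromosome's own split were applied to the 32 specific peaks of the Notch genes, 19.0 would be depleted-specific, and 18 were. Counting common peaks with each library, the Notch genes had 22 peaks in the control library and 26 in the depleted library, a ratio of 1.18 against 1.30 over all peaks.

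The number of JAG1 peaks was high among all genes and less so on its own chromosome. Of 10399 protein-coding genes with a peak, 1.68% had as many as JAG1 or more, and the median was 2 peaks. Of the 499 such genes on chromosome 20, 12.2% did, and the median was 8. Chromosome 20 carried 16.3% of all listed peaks, and no correction for copy number is stated for the peak calls. Whether copy number bears on the JAG1 count was not tested. The 3 genes whose numbers in the 3 lists were most like those of JAG1 were RPRD1B on chromosome 20 (4 common, 9 control-specific and 12 depleted-specific), TMC5 on chromosome 16 (3, 10 and 12) and ACSM1 on chromosome 16 (5, 11 and 12).

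The nearest-gene rule also left out peaks inside JAG1. The span of JAG1 in GENCODE held 17 peaks, 1 common, 6 control-specific and 10 depleted-specific. Of these, 10 were listed under MIR6870, a microRNA gene within JAG1, 3 of them control-specific and 7 depleted-specific. The highest was a depleted-specific peak in intron 15 of 25, with a score of 11.2 and 22 tags (13.8 to 33.3), and 1.30% of depleted-specific peaks scored as high.

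JAG2, the other Jagged ligand, had no listed peak, and the nearest peak to its start was depleted-specific, 148 kb away and listed under CDCA4. The receptors, which carry the signal across the membrane, were also without a listed peak. The nearest peak to the start of NOTCH1 was control-specific and 79.5 kb upstream. For NOTCH3 it was common and 75.2 kb downstream. For NOTCH2 it was depleted-specific and 142 kb downstream, at chr1:119958193-119958493, with a score of 7.60 and 15 tags (8.40 to 24.7). These distances run from the GENCODE starts. The RefSeq start of NOTCH2, at chr1:120069662, lies inside its GENCODE span, chr1:119911553-120100779.

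That NOTCH2 peak lay inside the gene, in intron 12 of 21 of one of its transcripts, but was listed under ADAM30. The promoter windows of JAG2 and the 3 receptors in RefSeq, 250 bases before to 50 after the start, had GC contents of 70.3 to 79.7%. None of them had a peak within 1000 bp. A peak below the lowest listed tag number would not appear in these lists, so open chromatin at these promoters was not detected at this depth, which does not show that it was closed.

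RBPJ, the DNA-binding protein of the pathway, was the Notch gene with a control-specific promoter peak. The peak at chr4:26319622-26319922 was centred 26 bp downstream of the listed TSS, with a score of 6.51 and 16 tags (9.15 to 26.0). Of control-specific promoter peaks, 33.7% scored as high. The nearest peak of the depleted library was 67327 bp away.

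RefSeq gives RBPJ 5 promoter windows, and the control-specific peak overlapped 1 of them, by 174 bp. The depleted library had 2 RBPJ peaks, both far from that start. They lay 67.3 kb and 199 kb upstream of it, each with a score of 6.08 and 12 tags (6.20 to 21.0). The nearer one was classed as intergenic in the deposited annotation but lies within the GENCODE span of RBPJ, chr4:26163455-26435131, which begins at an earlier start. No common RBPJ peak was listed.

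MAML1, the Mastermind coactivator that RBPJ and the receptor domain recruit, had a common promoter peak at chr5:179732435-179732735. Its centre was 237 bp upstream of the TSS, and its score of 6.91, or 17 tags (9.90 to 27.2), equalled that of the common JAG1 promoter peak. The other MAML1 peak was control-specific, in intron 1 of 4 and 22.4 kb downstream, with a score of 5.69 and 14 tags (7.65 to 23.5). No depleted-specific MAML1 peak was listed.

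HES1, the repressor of the bHLH class that is the best known Notch target, had 6 peaks, of which 2 were common, 1 was control-specific and 3 were depleted-specific. The HES1 promoter was open in both libraries. The common peak at chr3:194135970-194136270 was centred 28 bp upstream of the TSS, with a score of 7.32 and 18 tags (10.7 to 28.4), and 46.2% of common promoter peaks scored as high. The other common peak lay 23.4 kb upstream with 14 tags (7.65 to 23.5).

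Each library had its own peaks just upstream of HES1. The control-specific peak, 3.45 kb upstream, had a score of 7.73 and 19 tags (11.4 to 29.7), the highest of the 14 control-specific Notch gene peaks. The depleted-specific ones lay 1.21 kb upstream with a score of 7.60 and 15 tags (8.40 to 24.7), 6.18 kb upstream with 12 tags (6.20 to 21.0) and 23.3 kb downstream with 9 tags (4.12 to 17.1). The tag intervals of the highest peak from each library overlapped.

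HEY1, the other target gene among the 10, had a single peak, depleted-specific and 22.1 kb downstream of the listed TSS. Its score was 5.58, from 11 tags (5.49 to 19.7), against a lowest listed number of 8 in that list.

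NUMB, the adaptor protein that inhibits Notch receptors, had a common promoter peak at chr14:73458771-73459071, 341 bp upstream of the listed TSS. Its score of 8.95, or 22 tags (13.8 to 33.3), was the highest of the 4 common promoter peaks. Its other peak was control-specific, in intron 1 of 12 and 44.7 kb downstream, with a score of 5.69 and 14 tags (7.65 to 23.5). NUMB had no depleted-specific peak.

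**Figure D4:**
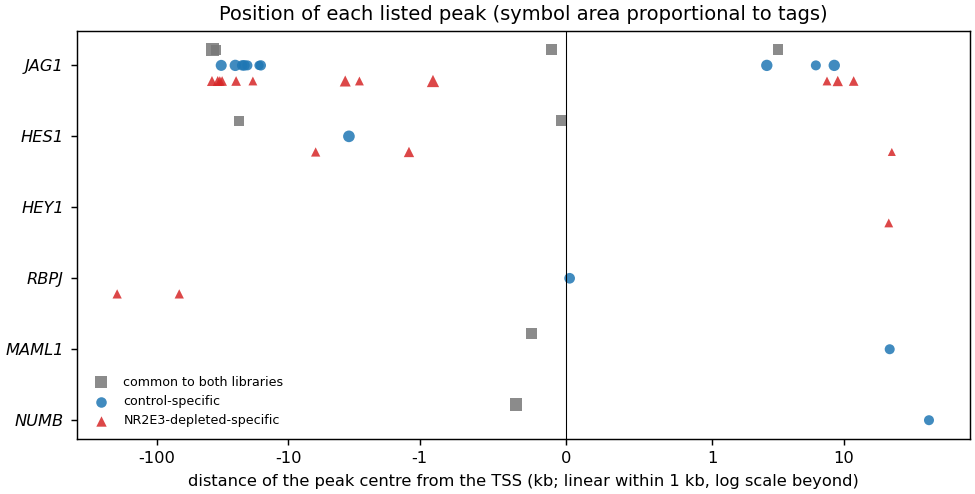
Distance of each of the 40 peaks from the TSS of its gene in kb (x axis, linear within 1 kb of the TSS and logarithmic beyond), by gene (y axis) and list (symbol and colour), with symbol area proportional to tags. Common promoter peaks stand at JAG1, HES1, MAML1 and NUMB, the RBPJ promoter symbol is control-specific, and the depleted-specific RBPJ symbols are the farthest upstream.

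The promoter peaks differed in the motif letters they held. Matches were counted over all 300 bases of a peak. Those past the TSS, such as an N-box of HES1 at +15, are not in the printed sequences. The letters searched on both strands were TGGGAA for RBPJ, CACNAG (the N-box bound by HES proteins), CACGTG (an E-box), GGGCGG for Sp1 and CTTTGA for TCF/LEF. The HES1 peak held 2 RBPJ cores in the same direction, at -84 and -70 from the TSS, and 4 N-boxes. Of common promoter peaks 25.2% held an RBPJ core, and 24.0% of 35116 RefSeq promoter windows did. A match here is a run of letters, not evidence of binding, and whether these 2 matches are known RBPJ sites was not examined.

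The common JAG1 promoter peak held 3 Sp1 cores, at -219, -183 and +32, and no RBPJ core. Of common promoter peaks, 65.0% held an Sp1 core. The depleted-specific JAG1 promoter peak differed, with 1 RBPJ core at -809 and no Sp1 core, where 22.0% and 64.5% of depleted-specific promoter peaks held these cores. The RBPJ promoter peak held 3 RBPJ cores, at -115, -72 and +89, and 2 Sp1 cores, at +30 and +154, where 25.6% and 44.6% of control-specific promoter peaks held one. The MAML1 promoter peak held 3 Sp1 cores, and the NUMB promoter peak held 1 N-box and none of the other motifs.

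Outside promoters, RBPJ cores were found in 10 of 17 depleted-specific peaks (58.8%, exact interval 32.9 to 81.6%), 7 of them at JAG1, against 26.2% of all depleted-specific peaks outside promoters. They were found in 4 of 13 control-specific peaks (30.8%, 9.09 to 61.4%), against 25.5%, and in 0 of 4 common peaks, against 25.2%. The 10 of 17 was the widest departure from its background among the 5 motifs in the depleted-specific list and was picked out after the values were seen. These peaks share few loci, so the interval treats as independent what is not, and no test was made. The depleted-specific peak 1.21 kb upstream of HES1 stood apart in base composition, with a GC content of 74.7% and 4 Sp1 cores, where 5.77% of depleted-specific peaks outside promoters held any.

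The wider pathway list had 60 genes, of which the 10 genes above are part, and 33 of them (55.0%) had a peak in any list. A common promoter peak was listed for 10 (16.7%), a control-specific one for 2 (3.33%) and a depleted-specific one for 8 (13.3%), and the shares of all genes were 14.6%, 3.69% and 11.8%. No peak was listed under any of the 4 receptors, although the peak inside NOTCH2 was listed under ADAM30. Among the genes for receptor cleavage, the metalloproteases ADAM10 and ADAM17 had a common promoter peak of 15 tags (8.40 to 24.7) and 19 tags (11.4 to 29.7).

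The depleted-specific promoter peaks of the wider list ran from 10 to 21 tags, with JAG1 the highest. FBXW7, the ubiquitin ligase subunit that marks the receptor's intracellular domain for degradation, and HDAC1, a histone deacetylase found with corepressors, had 19 tags each (11.4 to 29.7). MAML2, a Mastermind coactivator like MAML1, had 15 tags (8.40 to 24.7). The acetyltransferase CREBBP had 12 tags (6.20 to 21.0), the corepressor NCOR1 11 (5.49 to 19.7) and the γ-secretase subunit APH1A 10 (4.80 to 18.4).

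On the control side, DVL2, a Dishevelled protein of Wnt signalling that also restrains Notch, had a promoter peak of 13 tags (6.92 to 22.2) beside the 16 of RBPJ. JAG1 differed from the other 7 depleted-specific promoters in that its peak lay 909 bp from the TSS and 810 bp from a common peak. The others were centred 52 to 145 bp from the TSS and at least 12960 bp from a peak of the control library.

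**Figure D5:**
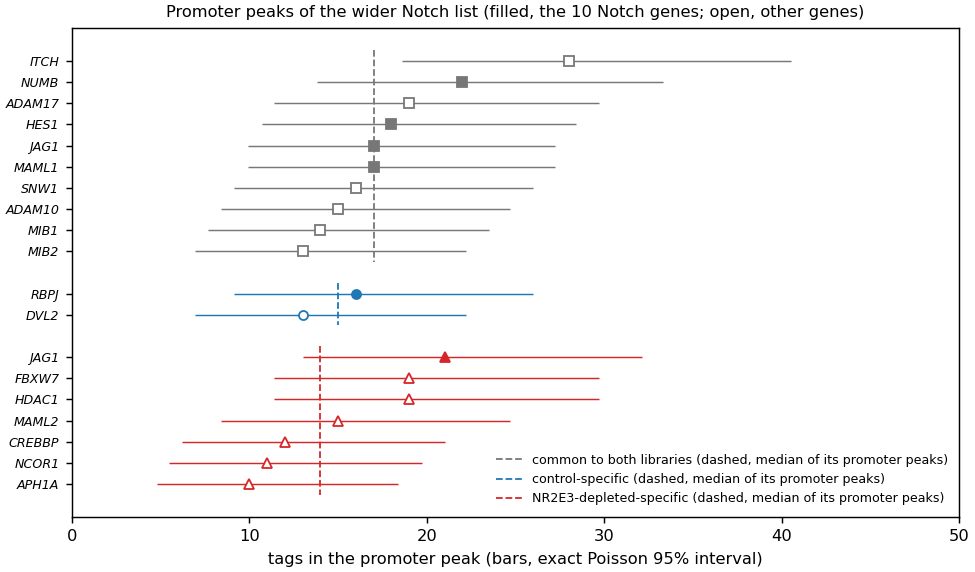
Tags (x axis, with exact Poisson 95% intervals) of the promoter peaks of the wider Notch list that are reported here (y axis), grouped by list, with filled symbols for the 10 Notch genes and dashed lines at the median of all promoter peaks of the list (17, 15 and 14 tags). Most intervals overlap each other and the median of their list.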

How the data were processed

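The FAIRE-seq peaks came from HepG2 cells, with 1 control and 1 NR2E3-depleted library assigned by their treatment label. Per the study's methods and the submitters' processing notes, the authors called bases with bcl2fastq 2.17, used Trimmomatic 0.39 for trimming, bowtie2 2.4.5 for alignment to hg38 and SAMtools 1.14, and called and annotated peaks with HOMER under a q-value threshold. The rule that separated common from specific peaks, and whether an input library was used for peak calls, is not given in the sources used here. Each deposited peak score was computed by the authors and is a scaled tag number. Tags were read as the score divided by the step of its list, of which scores under 10 were whole multiples for 100% of peaks within a tolerance of 0.006, and scores from 10 to 20 for 100% within 0.06. With the HOMER default scale, which is not stated, the depths would be 24.6 M and 19.7 M tags. Distances to the TSS and the annotated part of the gene in the deposited lists are the authors' too.

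The 10 genes and the wider lists were chosen with earlier results of these data known, so no list is independent evidence. All 10 genes are named, along with genes of the wider list that had a specific promoter peak, the 3 genes with peak numbers most like JAG1, and in full all promoter peaks and the highest-scoring others. Backgrounds are shares of the protein-coding genes of GENCODE release 44 or of all peaks of a list. Distances between peaks are between centres. Sequences and motifs were read from hg38, and promoter windows from RefSeq (GRCh38.p14), where 9 of the 10 genes matched, with 13 windows, 5 of them overlapped by a peak. No test between conditions was possible. For 1 gene of the wider list the values are not reported here, although the counts include it. Alternatives covered the gene of a peak, the promoter definition, score and tag thresholds, neighbouring peaks, distance and leaving out JAG1. The step reading, intervals and motif search were tested on simulated data. The scripts ran under Python 3.11.15 with pandas 2.3.3, numpy 2.4.6, matplotlib 3.10.9 and scipy 1.17.1.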

Additional observations from a re-analysis of the deposited data

How the results depend on the processing

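Of the 44 alternative values computed, 32 stayed on the same side of 1 and within the interval of the reported ratio, or for counts within 1.5 times the reported count. Another 9 moved and 3 reversed direction. The ratio of depleted-specific to control-specific peaks (1.29 over the Notch genes, 1.20 at JAG1) fell to 0.444 and 0.429 when specific peaks needed at least 15 tags. A limit of 15 tags is by construction stricter in the depleted library, which is the shallower if the lists share a score scale. It is a score of 7.60 there against 6.10 in the control library. With specific peaks near the other library left out, the JAG1 ratio was 0.667 and the ratio over the Notch genes was 1.00, from 10 peaks in each specific list. With peaks taken by gene span the JAG1 ratio was 1.67. The intervals of all these ratios included 1. The depleted-specific promoter peak of JAG1 gave a count of 1 Notch gene, which was 0 with promoters taken within 500 bp or with specific peaks near the other library left out, and 2 within 3000 bp. The control-specific count of 1, from RBPJ, was 2 within 3000 bp. In the wider list the depleted-specific count of 8 was 4 with at least 15 tags, and the control-specific count of 2 was 5 within 3000 bp and 1 with a score of at least 6 or at least 15 tags. No paired analysis was possible because only 1 library of each group was analysed, and for the same reason no replicate could be left out. The low tag number of each peak limits what can be said of any single site.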

Other observations

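Outside the 10 genes, the wider list held 3 genes with many specific peaks, named here after their values were seen. ITCH, a ubiquitin ligase that acts on Notch and lies on chromosome 20 like JAG1, had 10 depleted-specific peaks, 6 control-specific and 5 common, all within 50 kb of its TSS. Its common promoter peak had 28 tags (18.6 to 40.5), the most of any promoter peak in the wider list. TLE1, a Groucho-type corepressor that HES proteins recruit, had 11 depleted-specific peaks beside 1 common and 1 control-specific. Those 11 lay from 3.31 to 451 kb downstream of the TSS, with 10 to 24 tags, and 3 were within 50 kb. Chromosome 9, where TLE1 lies, had 552 depleted-specific and 192 control-specific peaks in all. SOX9, a transcription factor of bile duct cells, had 5 depleted-specific peaks, 4 control-specific and 2 common, and none of these was in the promoter class. These are counts from 1 library per group, with no test.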
